A study of Homo sapiens with 6 samples.

Results

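The guanylate-binding proteins GBP1, GBP2, GBP3, GBP4 and GBP5 and the myxovirus resistance proteins MX1 and MX2 are large GTPases whose genes are switched on by interferon. The set was defined by gene symbol: 7 rows of the deposited table, of 60617 genes in all, have an Ensembl identifier that maps to these symbols, 5 of them GBP and 2 of them MX genes. The cells were A549, an established line from a human lung cancer, and bulk RNA was read in 3 libraries of YTHDF1 knockout cells and 3 libraries of wild-type cells. YTHDF1 is a reader protein of N6-methyladenosine in messenger RNA. Both groups were kept in the same serum-containing medium, and the labels name no treatment besides the knockout nor the part of YTHDF1 that was edited. The labels call the libraries biological replicates and do not say whether the knockout cells came from 1 clone or several, so p-values weigh the difference against the spread among these libraries only, which may be technical.

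GBP proteins bind and hydrolyse GTP, gather on membranes and on the surface of bacteria in the cytosol, and there form a platform that activates inflammatory caspases. MX proteins are relatives of dynamin that form rings and bind viral nucleoproteins or capsids. Transcription of both families is classically driven by the interferon-activated factor ISGF3, which binds the interferon-stimulated response element. The GBP genes also respond to interferon gamma, in part through the transcription factor IRF1.

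The 5 GBP genes lie together on the minus strand of chromosome 1, within 266.1 kb from 89006666 to 89272804 in GENCODE release 29 on GRCh38. GBP3 comes first in that interval, followed by GBP1, GBP2, GBP4 and GBP5. The MX genes lie side by side on the plus strand of chromosome 21, MX2 from 41361943 to 41409390 and MX1 from 41420304 to 41459214. Of the 7 genes, 4 matched the RefSeq promoter table (GRCh38.p14), GBP1, GBP3 and GBP4 with 1 start each and MX1 with 3 starts. Each entry covers 250 bases before a start and 50 bases after it.

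The core of the interferon-stimulated response element, searched on both strands as a pair of GAAA repeats with any 1 or 2 bases between them, was present in all 6 of these promoter entries, against 6.40% of the 35116 promoters in the table. The entry of MX1 start 2 held only the form with 1 base between the repeats. That form was in 3.12% of all promoters and the form with 2 bases in 3.57%. The search letters and the windows were chosen with the members' sequences in view. The windows are shown because the genes that carry them all rose, by unequal amounts. GBP2, GBP5 and MX2, which had no promoter entry, rose too, and the part of the element in these rises was not tested. Each is 30 bases long and written 5′ to 3′ along the gene, with the matched bases in capitals, which read as TTTC repeats where the match is on the other strand.
GBP1, chr1:89065316-89065345, minus strand: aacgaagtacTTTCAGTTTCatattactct
GBP3, chr1:89022845-89022874, minus strand: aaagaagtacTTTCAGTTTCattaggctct
GBP4, chr1:89198927-89198956, minus strand: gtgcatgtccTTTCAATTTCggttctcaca
MX1, start 1, chr21:41420553-41420582, plus strand: accagcgagcaGAAATGAAACCGAAActga
MX1, start 2, chr21:41426115-41426144, plus strand: caggagctaggTTTCGTTTCtgcgcccgga
MX1, start 2, chr21:41426160-41426189, plus strand: gggtctgtgagTTTCATTTCttcgcggcgc
MX1, start 3, chr21:41431844-41431873, plus strand: ggtcactctgTTTCTCTTTCcgtgaataaa

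The GBP1 and GBP3 windows were identical at 25 of 30 positions. The match began at position -127 from the RefSeq start of GBP1, at position 2 for GBP3 and at position -4 for GBP4, counting the start site as 0. In the entry of MX1 start 1 the capitals cover a pair of overlapping matches, and a further match lay at position -19. The gamma-activated site, the element known from genes that respond to interferon gamma, was searched as TTCNNNGAA, which reads the same on both strands. It was present in 2 of the 6 entries, those of GBP3 and of MX1 start 3, against 7.66% of all promoters. At MX1 start 3 it overlaps the end of the response element match. A match is a description of the sequence and does not show binding.

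Library totals were 32037107 to 40675628 counts in the knockout libraries and 27238817 to 40460782 counts in the wild-type libraries. At this depth 3 counts in a library stood for 0.0735 to 0.0929 CPM in the knockout and 0.0749 to 0.111 CPM in the wild type, where CPM are counts scaled to library size with TMM factors. YTHDF1 itself averaged 48.1 ± 0.87 CPM in the knockout and 99.4 ± 3.89 CPM in the wild type (SD, n = 3 each), so its RNA was lower but still present. All 12 epithelial and A549 markers were read in both groups, 6 higher and 3 lower in the knockout, from CDH1 at 34.0 ± 0.602 CPM in the knockout and 10.0 ± 1.69 CPM in the wild type to AKR1B10 at 482 ± 36.2 CPM in the knockout and 1005 ± 49.7 CPM in the wild type. The 12 leukocyte and monocyte markers summed to 8.89 to 9.41 CPM in the knockout libraries and 15.5 to 17.2 CPM in the wild-type libraries. CD3E, CD3D and MS4A1 were at 0 counts in all 6 libraries. Of the 4 leukocyte and monocyte markers tested, 3 were lower and 1 was higher. CD14 was lower, at 3.45 CPM in the knockout and 11.1 CPM in the wild type. ITGAM was higher, at 4.70 CPM in the knockout and 3.24 CPM in the wild type. The 10 fibroblast and endothelial markers summed to 44.0 to 47.3 CPM in the knockout libraries and 32.4 to 37.7 CPM in the wild-type libraries. Most of this was COL1A1 (41.9 CPM in the knockout and 29.8 CPM in the wild type). Of the 4 fibroblast and endothelial markers tested, 2 were higher and 2 lower. Messenger RNAs encoded by mitochondria took 3.72% to 3.98% of the counts in the knockout and 5.76% to 5.92% in the wild type, and the part of these shifts in the results below was not tested.

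All 7 GTPase genes were higher in the YTHDF1 knockout, each past the threshold of edgeR's quasi-likelihood test, which was an adjusted p of 0.05 after Benjamini-Hochberg adjustment over 18505 genes. Among all genes tested, 53.5% passed by the same rule, 27.2% higher in the knockout and 26.3% lower. Each of the 7 genes also had all 3 knockout libraries above all 3 wild-type libraries, which held for 29.8% of genes tested. The filter on low counts kept all 7, but GBP4, GBP5 and MX2 had 0, 4 and 10 counts over the 3 wild-type libraries and passed it only through the knockout libraries, so these 3 had to differ and their calls are no support. A log2 fold change of at least 3 was reached by every member except GBP2, and by 1.45% of genes tested. The 7 genes together took 0.139%, 0.143% and 0.143% of the counts in the knockout libraries, against 0.00179%, 0.00152% and 0.00195% in wild type. In bulk RNA, more cells that express a gene and more of its RNA per cell cannot be told apart.

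GBP1, the member that binds lipopolysaccharide on bacteria and starts the GBP coat, had 269.9, 298.9 and 303.3 CPM in the knockout libraries, against 4.40, 3.34 and 4.77 CPM in the wild-type libraries. The groups were far apart and the wild-type values were low but well above 0 in each library. GBP1 rose by 6.09 on the log2 scale (SE 0.0765), about 68.3-fold (edgeR quasi-likelihood test, adjusted p = 5.06e-35). Here and below the SE is the log2 fold change over the root of the test's F statistic. For a large fold change it can be smaller than the counting error.

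GBP2, a prenylated partner of GBP1 in the coat, had 33.4, 30.2 and 31.9 CPM in the knockout libraries, against 6.57, 5.60 and 6.99 CPM in the wild-type libraries. The groups were well apart, but GBP2 rose least of the 7 genes. Its log2 fold change was 2.30 (SE 0.095), a 4.94-fold difference (edgeR quasi-likelihood test, adjusted p = 3.36e-20).

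GBP3, the closest paralog of GBP1, had 98.7, 108.8 and 109.2 CPM in the knockout libraries, against 5.78, 5.19 and 6.27 CPM in the wild-type libraries. Its groups did not overlap, and the libraries within each group lay close together. The log2 fold change was 4.19 (SE 0.0755), an 18.2-fold difference (edgeR quasi-likelihood test, adjusted p = 1.49e-30).

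GBP4, which joins the coat formed by GBP1, had 3706, 5738 and 5667 counts in the knockout libraries, or 114.7, 140.6 and 139.2 CPM, against 0 counts in every wild-type library. No other member was silent at this depth in all 3 wild-type libraries. Set against 3 counts over the wild-type group, about the one-sided 95% upper limit for 0 counts, GBP4 was at least 4643-fold higher in the knockout. Its p-value is not given, since GBP4 passed the filter on low counts only through the knockout libraries.

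GBP5, a prenylated inhibitor of the protease furin, had 357, 449 and 552 counts in the knockout libraries, or 11.9 ± 1.46 CPM (SD, n = 3), against 2, 0 and 2 counts in the wild-type libraries. The groups were far apart, and 1 wild-type library had no count. Scaled to depth, the group sums stood in a ratio of 313 (exact 95% counting interval 122 to 1150), a wide interval because of the 4 wild-type counts. The fitted log2 fold change was 8.16 (SE 0.302), without a p-value, since GBP5 too passed the filter only through the knockout libraries. That SE is too small for the 4 wild-type counts, and the counting interval is the better guide to the error.

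MX1, the cytoplasmic MX protein that blocks influenza and other RNA viruses, had 809.4, 793.1 and 766.5 CPM in the knockout libraries, against 1.11, 1.11 and 1.55 CPM in the wild-type libraries. The knockout libraries were all high and the wild-type libraries all low. The log2 fold change was 9.27 (SE 0.0759), a 617-fold difference (edgeR quasi-likelihood test, adjusted p = 3.55e-40). Between knockout libraries MX1 varied least of the 7 genes, with a coefficient of variation of 2.75%.

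MX2, the MX protein at the nuclear envelope that blocks HIV, had 43.0, 42.2 and 44.8 CPM in the knockout libraries, against 4, 4 and 2 counts in the wild-type libraries. Its wild-type level was therefore near the limit of detection, while its knockout libraries were close together. The fitted log2 fold change was 8.78 (SE 0.171), without a p-value, since MX2 too passed the filter only through the knockout libraries. The group sums, scaled to depth, stood in a ratio of 455 (exact 95% counting interval 247 to 949). This interval is wider than the SE of the fit implies and is the better guide to the error.

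**Figure D1:**
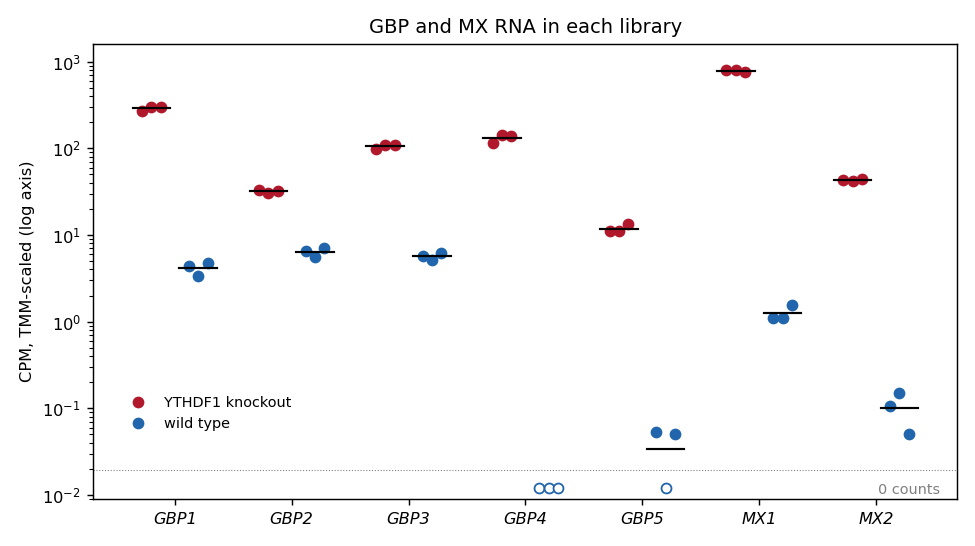
CPM of the 7 GTPase genes on a log axis, with 1 point per library, YTHDF1 knockout in red to the left of wild type in blue, and bars at the group means of 3 libraries. Open points on the bottom strip are libraries with 0 counts, which are all 3 wild-type libraries for GBP4 and 1 wild-type library for GBP5; for every gene the knockout points lie above the wild-type points.

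The rises were unequal in size, from 4.94-fold for GBP2 to at least 4643-fold for GBP4. The 4 genes with more than 100 wild-type counts were GBP1, GBP2, GBP3 and MX1. Their log2 fold changes of 6.09, 2.30, 4.19 and 9.27 were each separated from the next by many times their standard errors. Leaving out any library moved each of them by far less than these gaps. Among these 4, MX1 had the lowest wild-type level per kilobase and the largest rise. The median log2 fold change of the 7 members was 8.16, also with GBP4 at its bound, against 0.00 for all genes tested, and 3 of these 7 values are from genes that entered only through the knockout libraries. In rank of fitted fold change among the 18505 genes, GBP4 was number 1, MX1 number 25, MX2 number 31, GBP5 number 39, GBP1 number 78, GBP3 number 157 and GBP2 number 414; the ranks of GBP4, GBP5 and MX2 depend on how few or 0 counts are fitted. With a prior count of 2 in the fit, the log2 fold change was 7.01 for GBP5 and 8.17 for MX2.

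**Figure D2:**
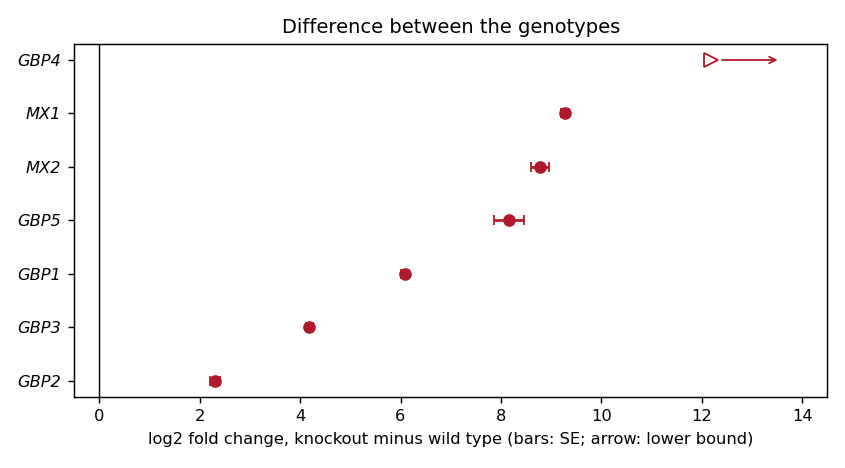
Log2 fold change, YTHDF1 knockout minus wild type, of each member with its standard error from the fit on 3 libraries per group. The bars of GBP5 and MX2 understate the counting error of their few wild-type counts. The open triangle with an arrow is the lower bound for GBP4, whose wild-type libraries had 0 counts; fitted values run from 2.30 for GBP2 to 9.27 for MX1.

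The knockout libraries differed among themselves in different ways for different members. GBP1, GBP3 and GBP4 were lowest in knockout replicate 1, whereas GBP2 and MX1 were highest there. GBP5 and MX2 were highest in knockout replicate 3. These differences were small beside those between the genotypes, with coefficients of variation in the knockout of 2.75% to 12.3% over the 7 genes.

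Because the genes rose unequally, the make-up of the GBP messenger pool differed between the genotypes. GBP1 made up 51.1%, 50.7% and 50.8% of the summed GBP1 to GBP5 counts in the knockout libraries, against 26.2%, 23.6% and 26.4% in the wild-type libraries. GBP4 made up 21.7%, 23.9% and 23.3% in the knockout libraries and no counts in the wild-type libraries, where the exact 95% limits allow a share of up to 0.964%. These were the shares that were larger in the knockout, together with that of GBP5, which was 2.08% ± 0.203 in the knockout and 0.197% ± 0.171 in the wild type (SD, n = 3 each).

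GBP2 showed the opposite, with 6.32%, 5.13% and 5.34% in the knockout libraries, against 39.1%, 39.6% and 38.7% in the wild-type libraries. GBP3 made up 18.7%, 18.4% and 18.3% in the knockout libraries, against 34.4%, 36.7% and 34.7% in the wild-type libraries. The groups did not overlap for any of the 5 shares, which add up to the whole and are not independent of each other. Each had a two-sided p of 0.1 in an exact permutation test, the smallest that 3 against 3 libraries can give, or 0.12 after Benjamini-Hochberg adjustment over 6 shares, so none passed 0.05. A share within a library does not depend on the scaling between libraries.

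In the MX pair, MX1 made up 94.96%, 94.95% and 94.5% of the MX counts in the knockout, against 91.3%, 88.2% and 96.9% in the wild-type libraries. The groups overlapped, with a difference of 2.66 percentage points and a two-sided p of 0.4 in an exact permutation test (adjusted p 0.4 over the 6 shares). It was 0.706 percentage points without wild-type replicate 2 and 5.03 without wild-type replicate 3. The wild-type shares rest on 46, 34 and 64 counts, and their exact 95% intervals reached from 72.5% to 99.6%. A difference in this ratio was not detectable at that depth, which does not show that MX1 and MX2 rose alike.

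**Figure D3:**
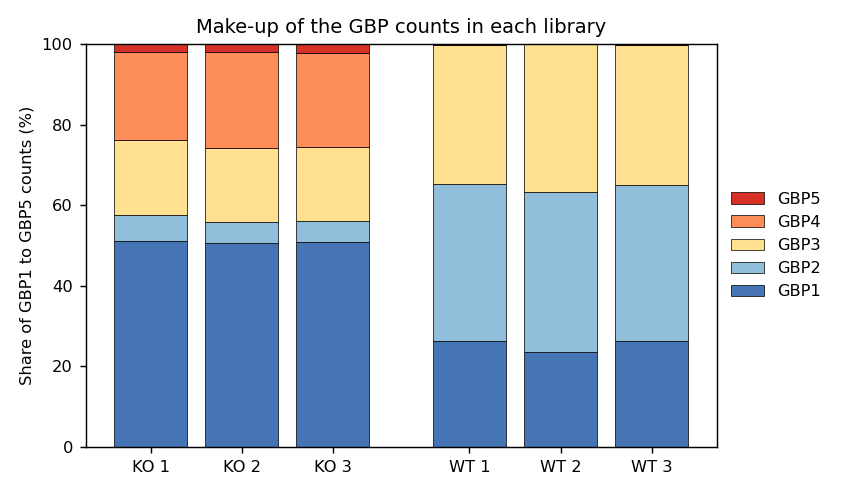
Share of each GBP gene in the summed counts of GBP1 to GBP5, in percent, for each of the 3 YTHDF1 knockout and 3 wild-type libraries. GBP1 fills 50.7% to 51.1% of the knockout bars and 23.6% to 26.4% of the wild-type bars, and GBP4 has a part in the knockout bars alone.

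Between genes, levels were compared as CPM per kilobase, once with the length of all annotated exons and once with the longest principal transcript of each gene, a choice added after the data were seen. With all exons the knockout order was MX1 at 91.6 ± 2.52, GBP1 at 58.2 ± 3.63, GBP3 at 24.6 ± 1.38, GBP4 at 21.5 ± 2.38, GBP2 at 5.07 ± 0.25, MX2 at 3.32 ± 0.104 and GBP5 at 1.46 ± 0.18 CPM per kilobase (SD, n = 3 libraries). GBP3 and GBP4 nearly met, at 23.0 in the lowest library for GBP3 and 23.0 in the highest for GBP4. With the principal transcript the order held except that GBP2, at 14.3 ± 0.706, and MX2, at 14.2 ± 0.447 CPM per kilobase, overlapped in the knockout.

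The wild-type order was different. With all exons GBP3 led at 1.34 ± 0.1251 CPM per kilobase, followed by GBP2 at 1.02 ± 0.114, GBP1 at 0.836 ± 0.149, MX1 at 0.146 ± 0.0294, MX2 at 0.00776 ± 0.00378 and GBP5 at 0.0042 ± 0.00364, with GBP4 at 0. GBP2 and GBP1 overlapped between libraries, as did MX2 and GBP5. With the principal transcript GBP2 led in the wild type at 2.88 ± 0.321 CPM per kilobase and GBP3 followed at 1.87 ± 0.175, so the first place depends on the length used. MX1 was the first of the 7 in the knockout and the fourth in the wild type by either length.

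The paralogs are similar enough for some reads to be shared, and the sources used here do not say how reads with several matches were counted. Of the distinct 50-base stretches in GBP1 transcripts, 3.40% also occur in GBP3 and 6.60% in the pseudogene GBP1P1. Of those in GBP2, 9.15% also occur in GBP7, whose annotated exons overlap 9.89% of the GBP2 exon bases on the same strand. Of those in GBP3, 3.70% also occur in GBP1 and 1.80% in GBP1P1. MX1 and MX2 shared 0.213% of the MX1 stretches. The levels of GBP1, GBP3 and GBP2 are therefore uncertain, and these shares do not bound the share of reads that could be assigned to the wrong gene.

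The antisense gene AP001610.1, which overlaps 2.74% of the MX1 exon bases, was read only in the knockout, with 225 counts there and 0 in the wild type. That is 0.251% of the MX1 counts in the knockout, and the sources used here do not give the strand setting, so reads of MX1 and of AP001610.1 cannot be told apart. Antisense genes over GBP4 (AC099063.4) and GBP5 (AC099063.1) had 8 and 0 counts in the knockout and 0 in the wild type.

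GBP6 and GBP7, the other GBP genes of the cluster, stayed low. GBP7 had 15, 27 and 30 counts in the knockout libraries, against 0, 0 and 3 counts in the wild-type libraries, which scaled to depth gave a ratio of 22.1 (exact 95% counting interval 7.27 to 110). GBP7 passed the filter on low counts only through the knockout libraries, so no call is given for it. The overlap with GBP2 makes the GBP7 count uncertain. GBP6 had 7 counts, all in knockout replicate 3, and 0 in the wild type, and did not pass the filter on low counts. GBP1P1, a transcribed GBP pseudogene chosen after its values were seen, had 305, 403 and 484 counts in the knockout libraries and 0 in each wild-type library, at least 366-fold higher by the floor of 3 counts over the group.

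The protein-coding genes beside the GBP cluster moved little. On the GBP3 side, RBMXL1, KYAT3 and GTF2B rose by 0.35, 0.46 and 0.65 on the log2 scale (edgeR quasi-likelihood test, adjusted p = 0.0168, 0.000282 and 2.46e-06). On the GBP5 side beyond GBP6, LRRC8B fell by 0.50 and LRRC8C fell by 0.37, with adjusted p of 0.00047 and 4.8e-05. Each of these changes was smaller than that of GBP2, the member that rose least.

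Around the MX pair the picture was similar. BACE2 rose by 0.56 and RIPK4 by 0.51, PRDM15 fell by 0.31, with adjusted p of 5.35e-08, 0.000327 and 0.00539 by edgeR's quasi-likelihood test. TMPRSS2, next to MX1, had 5 counts over the knockout and 4 over the wild-type libraries. FAM3B, next to MX2, had 2 counts over the knockout and 0 over the wild-type libraries, and DSCAM had 0 in both groups, so these 3 were not tested.

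**Figure D4:**
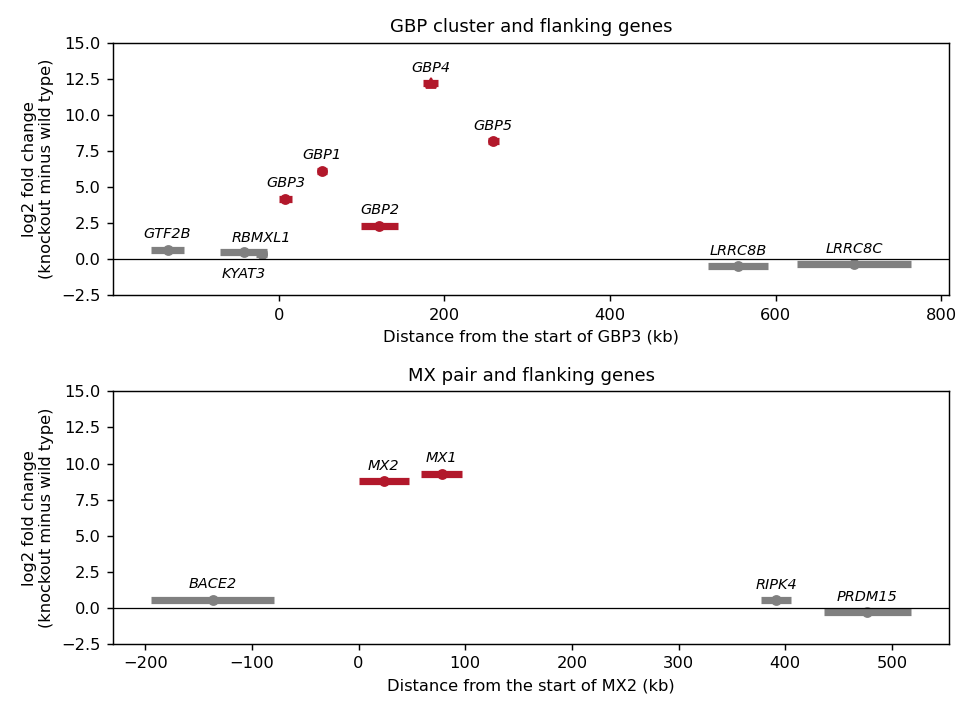
Log2 fold change, YTHDF1 knockout minus wild type, of the members (red) and of flanking protein-coding genes that were tested (grey), drawn along each locus by distance in kb, with the bar spanning the gene. The triangle for GBP4 is a lower bound; flanking genes lie between -0.50 and 0.65 and members between 2.30 and 9.27 or above.

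The ligands that induce the GBP and MX genes were examined from a list of 9 interferon genes, of which 6 were tested. Of these, 4 were called higher and 1 lower, but the 4 had 0 counts in every wild-type library and passed the filter only through the knockout libraries, so their calls and the list's median were fixed by the filter. IFNB1, the type I interferon beta, had 7.06, 9.90 and 7.71 CPM in the knockout libraries and 0 counts in the wild-type libraries. The type III interferon gene IFNL1 had 14.3, 16.7 and 15.5 CPM in the knockout libraries and 0 counts in the wild-type libraries, and IFNL2 and IFNL3, near-identical copies whose reads can be shared, were also at 0 counts in the wild type. The median log2 fold change of the 6 was 8.59 with genes at 0 counts set at their bound. IFNG, the type II interferon that classically induces GBP genes, had 0 counts in all 6 libraries. The one-sided 95% upper limit for this, about 3 counts in a library, stands for 0.0735 to 0.111 CPM. IFNE fell by 0.37, and IFNA1 averaged 2.46 ± 0.367 CPM in the knockout and 1.74 ± 0.406 CPM in the wild type, and did not pass (edgeR quasi-likelihood test, adjusted p = 0.0752).

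Among the interferon receptor and Janus kinase genes, 5 of 9 rose, 1 fell and 3 did not pass the test. Their median log2 fold change was 0.27. Over all genes tested, 27.2% were called higher and 26.3% lower, which is also the background for the lists that follow. No list was tested as a set. JAK2, a kinase of the type II receptor, rose by 1.83 to 43.6 ± 3.39 CPM in the knockout, against 12.2 ± 0.488 CPM in the wild type. IFNGR1, the ligand-binding chain of the type II receptor, rose by 1.29 to 223 ± 17.6 CPM in the knockout, against 91.2 ± 8.24 CPM in the wild type. IFNLR1, the specific chain of the type III receptor, rose by 0.54, IFNGR2 by 0.43 and IFNAR1 by 0.17, while JAK1 fell by 0.18. The receptor genes thus changed by less than the least-changed member, GBP2. IFNAR2, IL10RB and TYK2 had adjusted p of 0.468, 0.896 and 0.964, and 44.2% of the exon bases of IFNAR2 and 38.1% of those of IL10RB lie in the exons of another gene of the same strand, which makes both counts uncertain.

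Among genes for transcription factors of the interferon response, 10 of 11 tested, of 12 listed, rose and none fell, with a median log2 fold change of 2.70. Of these, ETV7 and IRF9 passed the filter only through the knockout libraries. STAT2, a subunit of ISGF3, had 596.5, 628.8 and 608.5 CPM in the knockout libraries, against 52.8, 52.5 and 50.9 CPM in the wild-type libraries. It was thus present in every wild-type library and did not overlap between the groups, with a rise of 3.56 on the log2 scale.

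IRF9, the DNA-binding subunit of ISGF3, had a log2 fold change of 1.94 and was counted at 0.497 ± 0.0578 CPM in the knockout and 0.131 ± 0.0553 CPM in the wild type, and 48.4% of its exon bases lie in the exons of another gene of the same strand, which makes its level uncertain. IRF1, a direct activator of GBP genes, rose by 2.83, IRF7 by 5.99, BATF2 by 5.82, IRF2 by 1.49, STAT3 by 0.88 and IRF5 by 0.60. ETV7 had 0 counts in each wild-type library and was at least 389-fold higher in the knockout. IRF3, which is activated by phosphorylation, averaged 58.0 ± 2.15 CPM in the knockout and 57.4 ± 1.95 CPM in the wild type, and did not pass (edgeR quasi-likelihood test, adjusted p = 0.854).

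Feedback genes of the response rose in 5 of 7 cases and 1 fell, against 27.2% higher and 26.3% lower over all genes tested. Their median log2 fold change was 1.06. ISG15, a ubiquitin-like protein, rose by 6.97 and USP18, which removes it and blocks the type I receptor, rose by 4.48. The Janus kinase inhibitor genes SOCS1 and SOCS3 rose by 3.88 and 1.06.

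Downstream of the GBP coat, 6 of 8 tested genes of 11 listed for caspases, the inflammasome and gasdermin rose and none fell. Their median log2 fold change was 0.67, and over all genes tested 27.2% were higher and 26.3% lower. CASP4, the caspase that binds lipopolysaccharide on the GBP platform, rose by 1.80 to 28.4 ± 1.6 CPM in the knockout, against 8.09 ± 0.634 CPM in the wild type. CASP1 rose by 4.61 to 27.8 ± 1.92 CPM in the knockout, against 1.09 ± 0.375 CPM in the wild type. APOL3, an apolipoprotein that acts with GBP1 on bacterial membranes, had a log2 fold change of 6.81 but, with 14 wild-type counts, passed the filter only through the knockout libraries, and NINJ1, which ruptures the plasma membrane in lytic death, rose by 0.58. GSDMD, the pore-forming target of CASP4 and chosen after its values were seen, rose by 0.75. CASP5, NLRP3 and AIM2 were too low to be tested.

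The dynamin and atlastin relatives, which share the GTPase fold but are not classical interferon targets, went both ways. Of 14 tested, 5 were higher and 5 lower, with a median log2 fold change of 0.04. Over all genes tested, 27.2% were higher and 26.3% lower, so such a split is not particular to these relatives. EHD4 and EHD1, membrane-remodelling ATPases of endosomes, rose by 1.96 and 0.49. DNM1, a dynamin, and EHD3 fell by 0.62 and fell by 0.64.

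**Figure D5:**
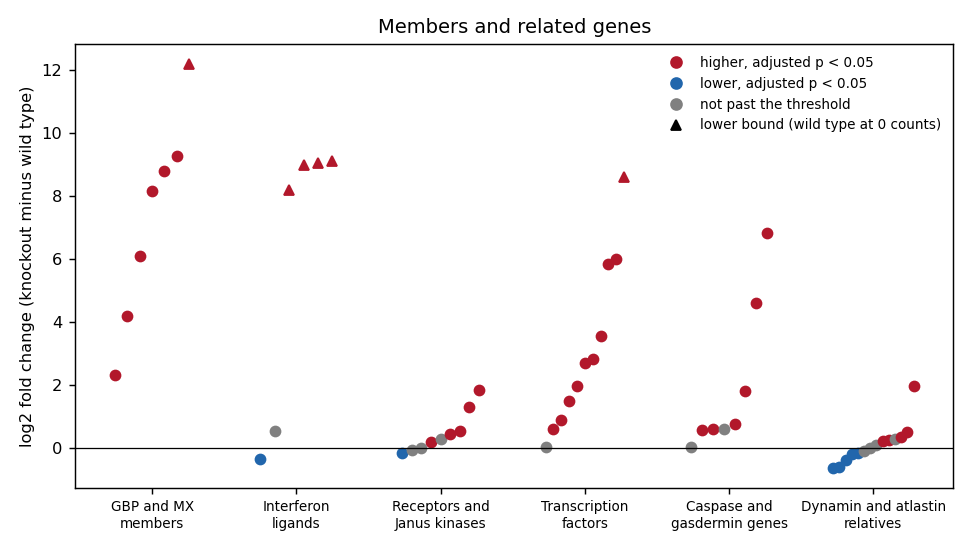
Log2 fold change, YTHDF1 knockout minus wild type, of the 7 members and of tested genes in 5 related lists, each point 1 gene ordered by value within its list. Red points are higher and blue points lower at an adjusted p of 0.05, grey points did not pass, and triangles are lower bounds for genes at 0 counts in the wild type; the dynamin and atlastin relatives lie between -0.64 and 1.96.

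For each member the 3 genes with the nearest profile were found by the Euclidean distance between log2 CPM over the 6 libraries, each centred on its own mean, which mostly compares the size of the difference between genotypes. IRF7, BATF2 and APOL3 were nearest to GBP1, at distances of 0.364, 0.531 and 0.597. C1S and APOL2 were among the 3 nearest to GBP2, at 0.181 and 0.194, and SP110, PARP9 and CFB were nearest to GBP3, at 0.148, 0.232 and 0.248. C1S and APOL2 rose by about as much as GBP2 did, with log2 fold changes of 2.40 and 2.39.

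RSAD2, OAS2 and XAF1 were nearest to GBP4, at distances of 0.856, 1.11 and 1.32. With 0 wild-type counts, every distance of GBP4 depends on the prior count of 2, and those of GBP5 and MX2 do so in part. Further, TRIM22, RET and IFIH1 were nearest to GBP5, at 0.529, 0.562 and 0.628. IFIT2 was nearest to MX1, at 0.34, and OASL was nearest to MX2, at 0.677. The next places for MX1, taken by IDO1 and CXCL11, and for MX2, taken by IFNL1 and IFNL2, went to genes with 0 wild-type counts, whose distances depend on that prior count too. Between members, MX1 and MX2 were 1.69 apart and GBP1 and GBP5 1.32 apart, while GBP2 and GBP4 were 10.92 apart. No member had another member as near as its nearest outside gene. Far more outside genes than members were searched, so this does not show that members are less alike than other genes.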

How the data were processed

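The authors deposited 1 table of whole-number counts per Ensembl gene, with 1 column for each of 6 libraries; no value was normalized, since column totals differ. Libraries were made from total RNA with an Illumina TruSeq Stranded kit, per the labels' protocols. The submitters' processing notes name featureCounts 2.0.1, STAR 2.7.0d, edgeR 3.32.1, Trim Galore 0.6.6 and build GRCh38. The sources used here do not give the annotation, the strand setting or how reads with several matches were counted. Each column was matched to a sample by its library name, and groups come from sample titles.

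Genes passing filterByExpr (18505 of 60617) were scaled with TMM factors and tested with the quasi-likelihood test of edgeR 4.0.16 (R 4.3.3), genotype being the only term, with Benjamini-Hochberg adjustment and a threshold of 0.05. Standard errors are the log2 fold change over the root of the F statistic. Where the fold change is large, they can be smaller than the counting error. Fold changes are knockout over wild type. With 0 wild-type counts the fold is a bound against 3 counts over the group; intervals and floors cover counting error only. The code was tested on simulated data. Libraries of a group differed by more than sampling noise (chi-square per degree of freedom 4.40 to 6.55), so all 6 were kept.

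Symbols, exon lengths and overlaps came from the symbol table and GENCODE 29, and promoter sequences from RefSeq (GRCh38.p14). The genes named are the members, YTHDF1, up to 4 genes with the smallest p per related list and any ligand, receptor or transcription factor listed, up to 3 coding neighbours per side, and the 3 genes nearest in profile with a mean of at least 1 CPM; exceptions are marked where they stand, and a few genes that the rule names are not reported here. The members and lists were chosen with earlier results of these data known. Alternatives were DESeq2 1.42.0, limma-voom (limma 3.58.1), RLE factors, library size only, 2 other filters, each library left out, a replicate block, a larger prior count, stricter thresholds and other lengths.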

Additional observations from a re-analysis of the deposited data

How the results depend on the processing

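All 7 members stayed higher in the knockout, past the threshold, under DESeq2, limma-voom, RLE factors, library size only and both other filters. The same held with the replicate block, each left-out library, an adjusted p of 0.01 and a test against a 1.5-fold change. For GBP4, GBP5 and MX2, with few or 0 wild-type counts, these calls are no support. The stability of the calls can be read for GBP1, GBP2, GBP3 and MX1 alone. The replicate block gave 7 members and 9703 genes in all, against 9893 without it, and it changed no call on a member; samples with the same number did not deviate together (correlations of -0.026, -0.014 and 0.008), so they share only a number. With the 1.5-fold test the count over all genes was 2585 in place of 9893. Leaving out a library moved the log2 fold change of GBP2 between 2.23 and 2.38, of GBP1 between 5.98 and 6.20 and of MX1 between 9.16 and 9.47. GBP5 and MX2 moved between 7.76 and 8.48 and between 8.42 and 9.07, their few wild-type counts being the limit of depth. With a prior count of 2 the fitted value of GBP4 was 11.23 in place of 15.23, so no fitted fold is given for it above; that of GBP5 was 7.01 in place of 8.16 and that of MX2 was 8.17 in place of 8.78. On counts per exon kilobase the differences in share, knockout minus wild type in percentage points, were -27.3 for GBP2 (counts -33.5), -19.8 for GBP3 (-16.8), 19.3 for GBP4 (23.0) and 1.19 for GBP5 (1.88), with the same directions.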

Other observations

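Genes for partners of the MX proteins, listed from general knowledge, mostly fell. Over all genes tested, 26.3% were called lower and 27.2% higher, and no list was tested as a set. Of 10 genes tested for nuclear import and for partners of the viral capsid that MX2 acts on, 8 fell and 1 rose, with a median log2 fold change of -0.21. PPIA, the capsid-binding cyclophilin, fell by 0.68 to 606 ± 21.6 CPM in the knockout, against 973 ± 15.6 CPM in the wild type, the import adaptor gene KPNA2 fell by 0.68 and the nucleoporin gene RANBP2 fell by 0.36. SAMHD1, a nucleotide triphosphohydrolase that restricts HIV by another route, was the gene that rose, by 4.16. Of 5 genes for proteins reported to interact with MX1, 3 fell and 1 rose, with a median of -0.30. The RNA helicase gene DDX39A fell by 0.78, SMARCA2 fell by 0.43 and BECN1 rose by 0.29.

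Another list held genes for prenylation, the type of lipid modification that anchors GBP1, GBP2 and GBP5 to membranes, and for further partners of GBP proteins. Of 9 tested, 4 rose and 1 fell, against 27.2% higher and 26.3% lower over all genes tested. Their median log2 fold change was 0.09. RABGGTA, a subunit of the geranylgeranyl transferase that modifies Rab proteins and not GBP proteins, rose by 0.94. PIM1, a kinase that restrains GBP1, rose by 0.68, the prenyl protease gene RCE1 rose by 0.48, and the methyltransferase gene ICMT fell by 0.27. The farnesyl transferase subunit genes FNTA and FNTB, chosen after their values were seen, had adjusted p of 0.926 and 0.571 in edgeR's quasi-likelihood test. Of the FNTB exon bases, 42.1% overlap another gene on the same strand. The prenyl transferase subunit gene PGGT1B, also chosen after its values were seen, rose by 0.26 (edgeR quasi-likelihood test, adjusted p = 0.00339). RNF213, a ubiquitin ligase listed beside the other immunity GTPases, rose by 1.81 to 2827 ± 72.6 CPM in the knockout, against 807 ± 27 CPM in the wild type. Of the 5 tested genes of that list, 4 were called higher, against 27.2% of all genes tested, with a median of 0.66. They include NKIRAS1 and NKIRAS2, inhibitors of NF-kB signalling, and GBP7, which passed the filter only through the knockout libraries.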
